A study of Homo sapiens with 6 samples.

Results

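The genes of cholesterol and fatty acid synthesis were followed in HCC827 cells after 24 h of EGFR inhibition. HCC827 is an established human line from a lung adenocarcinoma that carries a constantly active deletion mutant of EGFR, and erlotinib inhibits the kinase of that receptor. The members were chosen by symbol from knowledge of the pathways, with earlier results of these data known. All 36 were found among the 28395 genes of the deposited table. They comprise 19 genes of sterol synthesis, 11 genes of fatty acid synthesis, and 6 genes that regulate these pathways or carry sterols. RNA was sequenced from 6 libraries of the same unmodified line, 3 from cells treated with the vehicle DMSO and 3 from cells treated with 1 μM erlotinib, each for 24 h. Between 20760204 and 24641819 reads were assigned to genes in each library. Values are given as signal, which is the number of reads of a gene divided by 1 size factor of the library.

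As background, cells make cholesterol from acetyl-CoA through mevalonate, squalene and lanosterol, and they make fatty acids from the same precursor through malonyl-CoA. Transcription factors of the SREBP family control both routes. SREBP2 is known mainly for the sterol genes and SREBP1 mainly for the fatty acid genes. The precursors are held in the endoplasmic reticulum by SCAP and the INSIG proteins when sterols are plentiful, and are cut in the Golgi to release the active factor when sterols are scarce. EGFR signalling through AKT and mTOR is known to raise SREBP activity, and lung tumor cells use the fatty acids made by FASN and SCD for their membranes.

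The libraries carried the marks of the line and of the treatment. Of 6 epithelial markers, KRT7 was the most abundant, with a mean signal of 123690 in DMSO and 79897 with erlotinib, and the defining lung marker NKX2-1 had 3002 and 8644. Among the alveolar markers, SFTPC was listed at 0 in all DMSO libraries. Of the leukocyte markers, CD68, which epithelial lines also express, was the most abundant with 2898 and 3394, while the defining PTPRC had 1.78 and 4.75. DCN, a fibroblast marker, had 0 and 1.55, and the 5 fibroblast markers summed to 73.7 to 104 and 211 to 258, most of it COL1A1. The 4 endothelial markers summed to at most 58.1 in any library, with PECAM1 the most abundant in DMSO (mean 15.7) and VWF with erlotinib (27.4), and the 5 adipocyte and hepatocyte markers, PLIN1 the highest, to at most 17.8, with 2 of them at 0 everywhere. The summed signal of the 5 lung and alveolar markers was 4033 to 4491 in DMSO and 12887 to 13847 with erlotinib, with 3 of 5 higher and the others at too little signal to test. That of the 6 epithelial markers was 254720 to 286810 and 185950 to 191720, with 4 of 6 lower. The part of these shifts in the results below was not tested. ETV5, a transcription factor induced by MAPK signalling, fell by 4.38 and DUSP6, a phosphatase that restrains the same pathway, fell by 4.33 on the log2 scale. All 10 genes of a list of MAPK output were lower (adjusted p of 0.035 or less, limma with Benjamini-Hochberg adjustment). Since the samples are bulk RNA, fewer cells of a type and less RNA per cell cannot be told apart.

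Genes of both lipid pathways were lower with erlotinib, and the fall reached most steps. Of the 35 members with enough signal to test, 28 were lower, 1 was higher and 6 were neither when limma was run on all 14215 tested genes and p-values were adjusted by Benjamini-Hochberg with a threshold of 0.05. Of all genes tested, 35.4% were lower and 35.3% higher, 70.7% in either direction. The 3 erlotinib libraries lay wholly below the 3 DMSO libraries for the 28 lower members, against 36.9% of all tested genes, and wholly above them for TM7SF2 and ACACB, against 36.7%. When libraries were scaled to total reads in place of the size factor, 3952 genes were lower and 6182 higher, the median over all genes moved from 0.02 to 0.20, and 26 members were lower and 3 higher. The median log2 fold change of the members was -0.99. A fall of at least 1 log2 unit was found in 16 members, and in 10.8% of all tested genes. The summed signal of the 36 genes was 158060 to 160750 in the DMSO libraries and 55394 to 56422 in the erlotinib libraries, which is 0.689% and 0.275% of the total signal on average.

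**Figure D1:**
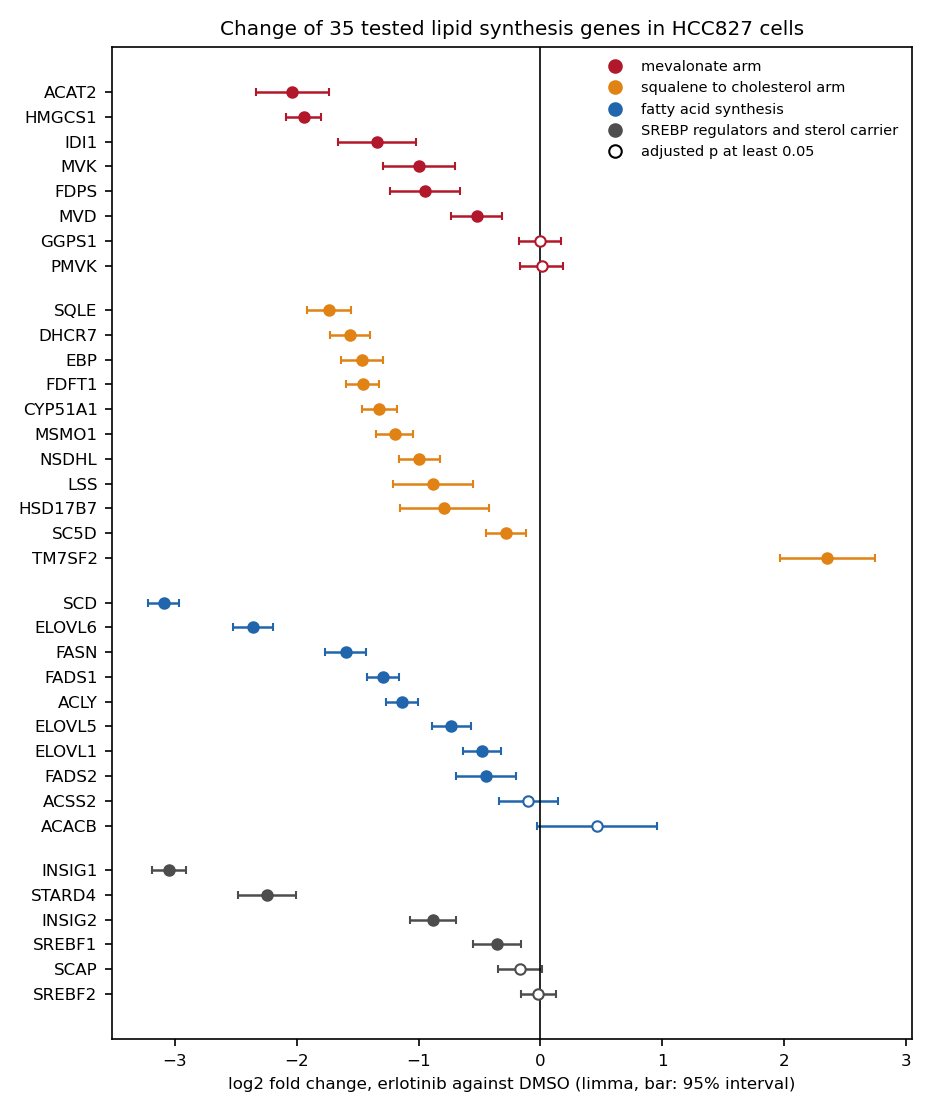
Log2 fold change of 35 members with erlotinib against DMSO, on the log2(signal + 1) scale, in their 4 groups, where points are limma estimates, bars are 95% intervals and open points did not pass the adjusted threshold. SCD (-3.09) and INSIG1 (-3.05) lie at the far left, TM7SF2 (2.35) is the only point far to the right, and PMVK, GGPS1 and SREBF2 lie near 0.

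The mevalonate arm leads from acetyl-CoA to the isoprenoid building blocks. Of its 8 genes, 6 were lower and 2 were neither, and the median of their log2 fold changes was -0.97. ACAT2 (Entrez gene 39, chromosome 6, 159762045 to 159779112 of GRCh38), the cytosolic thiolase that opens the route, had signals of 469.6, 512 and 465 in the DMSO libraries and of 102, 118 and 133 with erlotinib. The groups lay far apart, and the erlotinib libraries held 24.4% of the DMSO level. Its log2 fold change was -2.04 (standard error, SE, 0.14, limma adjusted p = 6.5e-11). ACAT2 overlaps TCP1 and SOD2 at its ends, so reads there could not be assigned with certainty.

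HMGCS1 (Entrez gene 3157, chromosome 5, 43287470 to 43313412), the synthase that makes HMG-CoA, was the most abundant gene of this arm. Its signal was 7069.6, 7871 and 7018 in DMSO and 1836, 2022 and 1847 with erlotinib. No erlotinib library came near the DMSO range, and the log2 fold change was -1.94 (SE 0.07, limma adjusted p = 1.8e-15). IDI1, the isomerase of isopentenyl diphosphate, fell by 1.34, MVK, the mevalonate kinase, fell by 0.997, and FDPS, the farnesyl diphosphate synthase, fell by 0.95 on the log2 scale. MVD, the decarboxylase that follows the kinases, fell by 0.52. The adjusted p-values of IDI1, MVK, FDPS and MVD were at most 1.0e-04 (limma).

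The remaining genes of this arm, PMVK and GGPS1, kept overlapping groups. PMVK, the phosphomevalonate kinase that acts between MVK and MVD, averaged a signal of 923 ± 45.5 under DMSO and 929 ± 33.1 under erlotinib (mean ± SD of 3 libraries), and the 95% interval of its log2 fold change was -0.17 to 0.19. GGPS1 makes geranylgeranyl diphosphate, used to anchor small GTPases in membranes. Its signal was 1227 ± 33.8 and 1225 ± 98.9 (SD, n = 3 each), with an interval of -0.18 to 0.17. With a correction for GC content both passed the threshold, PMVK as lower (log2 fold change -0.18, limma adjusted p = 0.031) and GGPS1 as higher (0.18, limma adjusted p = 0.029).

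The arm from squalene to cholesterol held 11 genes, of which 10 were lower and 1 was higher, and the median of their log2 fold changes was -1.2. FDFT1, the squalene synthase that commits farnesyl diphosphate to sterols, fell by 1.46 on the log2 scale. SQLE, the squalene epoxidase and a rate-limiting enzyme of the pathway, had signals of 2027, 1978 and 2007 in the DMSO libraries and of 551, 592 and 666 with erlotinib. The DMSO libraries were nearly level, and all erlotinib libraries lay far below them, at 30.1% of the DMSO level on average. The log2 fold change of SQLE was -1.74 (SE 0.09, limma adjusted p = 2.7e-13).

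Most of the other genes of this arm, which act at lanosterol or after it, also fell. DHCR7, the reductase of the final step in one of the routes, fell by 1.56, EBP, the sterol isomerase, fell by 1.46, and CYP51A1, the demethylase of lanosterol, fell by 1.32 on the log2 scale. MSMO1 fell by 1.2 and NSDHL fell by 0.99, and their products act one after the other to remove the methyl groups at carbon 4 of the sterol. LSS, the cyclase that closes the ring, fell by 0.88, and HSD17B7, a sterol ketoreductase, fell by 0.79. FDFT1 and these 7 genes had limma adjusted p-values of 4.3e-04 or less. SC5D, a desaturase near the end of the pathway, fell least, by 0.28 (adjusted p = 0.0029, limma), and was no longer past the threshold when libraries were scaled to the total count (limma adjusted p = 0.254) or corrected for GC content (limma adjusted p = 0.387).

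TM7SF2 (Entrez gene 7108, chromosome 11, 65111872 to 65116230) went the other way. It encodes a sterol reductase that removes the double bond at carbon 14. The signal was 166, 89.2 and 185 in DMSO and 686, 773 and 703 with erlotinib, so every erlotinib library lay well above the DMSO range. The log2 fold change was 2.35 (SE 0.19, limma adjusted p = 5.3e-10). LBR, a protein of the inner nuclear membrane that carries the same reductase activity, was far more abundant in DMSO and fell from a mean of 4817 to 1656.5, a log2 fold change of -1.53 (adjusted p = 2.5e-13, limma).

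**Figure D2:**
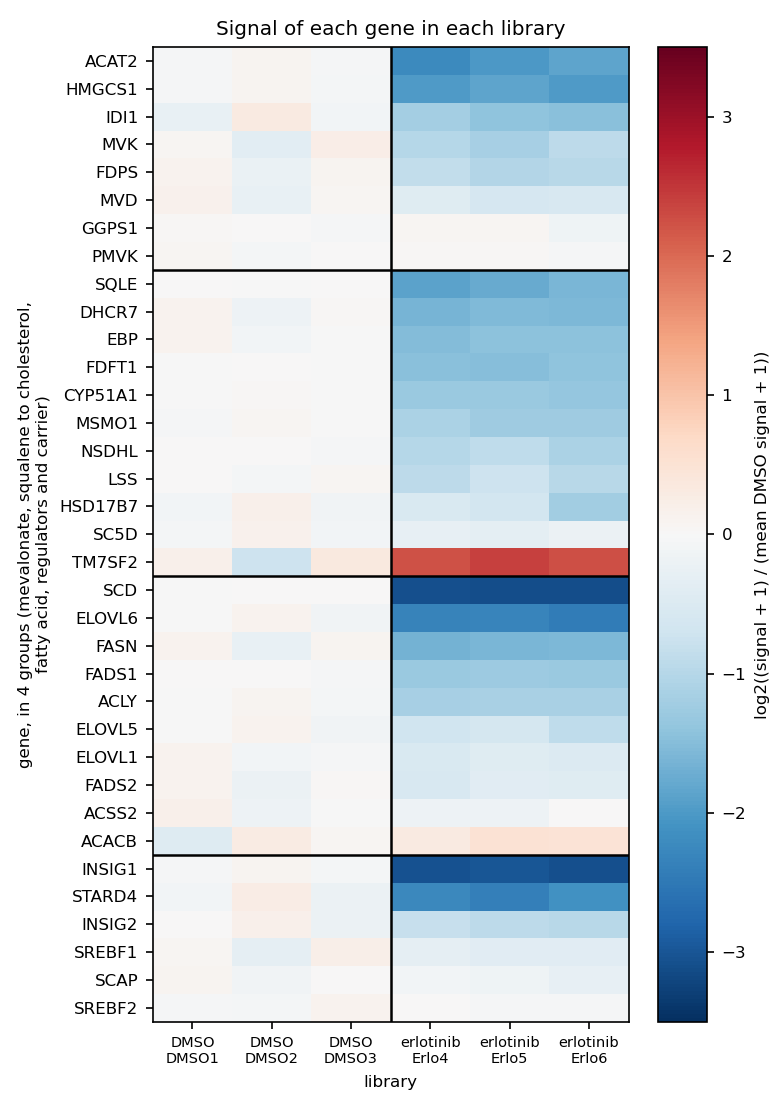
Signal of 35 members in each of the 6 libraries, as log2 of (signal + 1) over (mean DMSO signal + 1), with blue for lower and red for higher and with lines between the 4 groups of genes. The 3 erlotinib columns are alike and blue for most genes, and the row of TM7SF2 is red. In DMSO, library 2 is paler or bluer than its neighbours for TM7SF2, FASN, MVK, MVD and SREBF1.

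Fatty acid synthesis begins with the making of cytosolic acetyl-CoA, and 8 of its 10 tested genes were lower, 0 higher and 2 neither, and the median of their log2 fold changes was -0.93. ACLY, which splits citrate to acetyl-CoA, averaged a signal of 14407 ± 834 under DMSO and 6539.5 ± 73.5 under erlotinib (mean ± SD of 3 libraries) and fell by 1.14 on the log2 scale (adjusted p = 1.4e-12, limma). ACSS2, which makes the same product from acetate, had 456 ± 53.1 and 424 ± 33.7 (SD, n = 3 each). The groups of ACSS2 overlapped, and the 95% interval of its log2 fold change was -0.34 to 0.14. Whether ACLY and ACSS2 differ in their response was not tested.

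FASN (Entrez gene 2194, chromosome 17, 82078338 to 82098236), the synthase that builds palmitate, had signals of 21929, 16765 and 21156 in the DMSO libraries and of 6393, 6546 and 6681 with erlotinib. The second DMSO library was lowest of its group and still far above all erlotinib libraries. The log2 fold change was -1.60 (SE 0.08, limma adjusted p = 3.1e-13), and it was -2.02 with each library corrected for its GC content.

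SCD (Entrez gene 6319, chromosome 10, 100347233 to 100364826), the desaturase that turns stearate and palmitate into monounsaturated fatty acids, fell most of the members tested. Its signal was 42149, 43239 and 42767 in DMSO and 5082, 4928 and 5009.9 with erlotinib. The libraries of each group were close together, and the erlotinib level was 11.7% of the DMSO level. The log2 fold change was -3.09 (SE 0.06, limma adjusted p = 2.3e-19), at rank 65 from the bottom among the 14215 tested genes. By signal, SCD was gene 34 of the table in DMSO and gene 660 with erlotinib.

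The elongases, which lengthen the chain, did not fall alike. ELOVL6, which extends palmitate to stearate, had signals of 4539.9, 5022 and 4202 in the DMSO libraries and of 906, 925 and 842 with erlotinib. Its level fell to 19.4% of that in DMSO in libraries that did not overlap, a log2 fold change of -2.36 (SE 0.08, limma adjusted p = 5.5e-16). ELOVL5, which extends polyunsaturated chains, fell by 0.73, and ELOVL1, which makes very long saturated chains, fell by 0.48 on the log2 scale (limma adjusted p of 8.2e-06 or less). The 95% interval of ELOVL6 was -2.52 to -2.20 and those of ELOVL5 and ELOVL1 were -0.89 to -0.57 and -0.64 to -0.33.

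FADS1 and FADS2, the desaturases of polyunsaturated fatty acids, lie side by side on chromosome 11 and overlap by 801 bases. FADS1 fell by 1.29 (adjusted p = 2.6e-13, limma) and FADS2 fell by 0.45 (adjusted p = 0.0021, limma) on the log2 scale. ACACA and ACACB encode the acetyl-CoA carboxylases, which make malonyl-CoA for synthesis in the cytosol and for the control of oxidation at mitochondria. ACACA had signals of 11.3, 4.64 and 7.49 in the DMSO libraries and of 0, 5.94 and 8.42 with erlotinib, at most 10 reads in any library, and was not tested. Its whole transcript (100% at an identity of 100%) also aligned to an alternate contig of chromosome 17. Whether the authors' index held such contigs is not given in the sources used here, and the part of this copy in the low signal was not tested. ACACB had 49.9, 82.7 and 71.7 in DMSO and 84.9, 97.0 and 95.5 with erlotinib. The erlotinib libraries of ACACB all lay above the DMSO libraries, but by little, with a log2 fold change of 0.46 (95% interval -0.03 to 0.95, adjusted p = 0.084, limma). ACACB was past the threshold without DMSO library 2 (limma adjusted p = 0.031) and with scaling to the total count (limma adjusted p = 0.022), and its log2 fold change was 0.26 without DMSO library 1 (limma adjusted p = 0.327).

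Set side by side, the sterol genes counted 16 lower, 1 higher and 2 neither of 19 tested, and the fatty acid genes 8 lower, 0 higher and 2 neither of 10 tested. Their median log2 fold changes were -0.997 and -0.93, against 0.02 over all tested genes. The sterol genes without TM7SF2 ranged from ACAT2 (-2.04) to PMVK (0.01), and the fatty acid genes from SCD (-3.09) to ACACB (0.46). In summed signal, the fatty acid genes went from 96403 ± 1393 under DMSO to 27368 ± 326 under erlotinib (mean ± SD of 3 libraries). The mevalonate arm went from 12624 ± 211 to 5718 ± 182, and the squalene to cholesterol arm from 28592 ± 384 to 12793 ± 38.5 (SD, n = 3 each). Of the fatty acid sum, SCD and FASN made up 42718 and 19950.0 in DMSO and 5007 and 6539.9 with erlotinib, and whether the arms differ in their response was not tested.

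**Figure D3:**
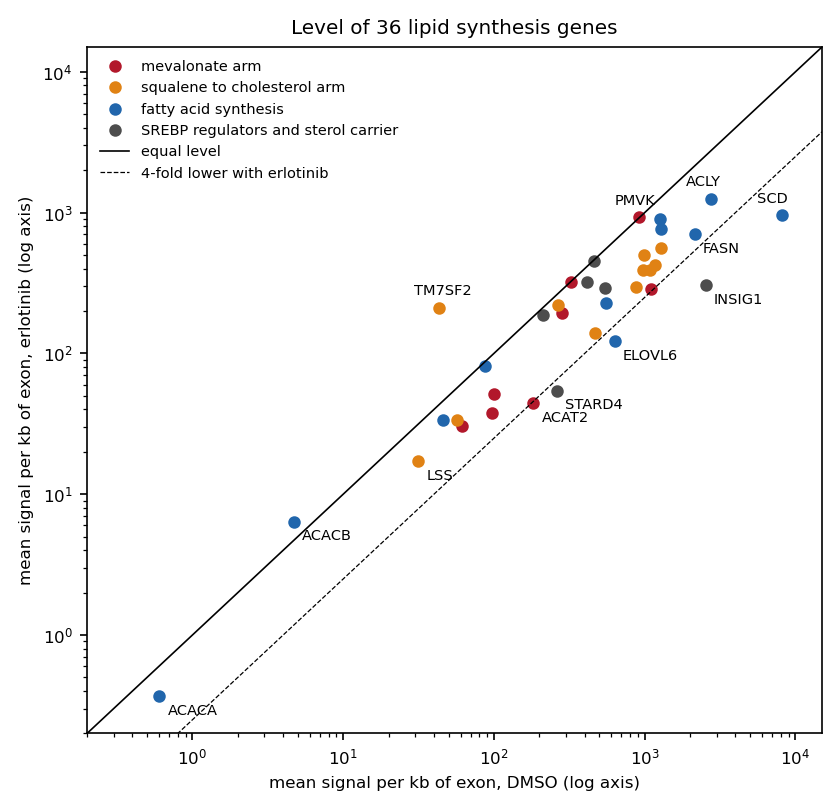
Mean signal per kb of exon of the 36 members in DMSO (horizontal, log axis) and with erlotinib (vertical, log axis), with a solid line at equal levels and a dashed line at 4-fold lower. SCD, the highest in DMSO (8145 per kb), falls to 955 per kb, close to PMVK (928 per kb), which stays on the solid line, and TM7SF2 stands above it.

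Per length, with the signal divided by the exon length of GENCODE release 44, SCD had the highest level of the members in DMSO, 8145 per kb of exon, followed by ACLY (2766), INSIG1 (2534) and FASN (2140.3). With erlotinib the order was ACLY (1256 per kb), SCD (955), PMVK (928) and ELOVL1 (900.1), and INSIG1 was at 306 per kb. The lowest levels per kb in DMSO, apart from ACACA, were those of ACACB (4.69), LSS (31.6), TM7SF2 (43.0) and FADS2 (45.7). A copy on an alternate contig was found for LSS (88.2% of the transcript at an identity of 100%). HSD17B7 (98.6% identity), SCD (96.1%) and CYP51A1 (95.9%) have near-complete copies elsewhere on a chromosome, and FDPS (at most 92.7%) and IDI1 (91.5%) have partial ones, so their levels are uncertain where reads could not be placed uniquely.

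Of the 6 regulators and carriers, 4 were lower and 2 were neither, and the median of their log2 fold changes was -0.62. INSIG1 (Entrez gene 3638, chromosome 7, 155297878 to 155310235), which retains the SREBP precursors in the endoplasmic reticulum and is itself an SREBP target, had signals of 9003, 9849 and 8893 in the DMSO libraries and of 1110.1, 1150.3 and 1089 with erlotinib. The fall was nearly as large as that of SCD, to 12.1% of the DMSO level, with a log2 fold change of -3.05 (SE 0.07, limma adjusted p = 2.5e-18). INSIG2, its relative of the same function, had 2147, 2416 and 1854 in DMSO and 1229, 1139.5 and 1090.5 with erlotinib. The INSIG2 groups did not overlap either, and the log2 fold change was -0.88 (SE 0.09, limma adjusted p = 2.4e-08). In DMSO, INSIG1 stood at 2534 and INSIG2 at 542 per kb of exon, and with erlotinib both were near the same level, at 306 and 292 per kb.

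The genes for the factors themselves came next. SREBF1, which encodes SREBP1, had signals of 3585, 2769 and 3911 in the DMSO libraries and of 2736, 2609.6 and 2597 with erlotinib. The lowest DMSO library lay only just above the highest erlotinib library, and the log2 fold change was -0.36 (SE 0.09, limma adjusted p = 0.0021). With scaling to the total count it was -0.18 and not past the threshold (limma adjusted p = 0.107), and with a correction for GC content it was -0.68 (limma adjusted p = 1.9e-09). With single libraries left out it lay between -0.50, without DMSO library 2, and -0.25, without DMSO library 3. The table counts SREBF1 as a whole, so its isoforms cannot be told apart.

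SREBF2, which encodes SREBP2, had 3601, 3536 and 4021 in DMSO and 3736, 3628 and 3641 with erlotinib. The groups overlapped, with a 95% interval of the log2 fold change of -0.16 to 0.13. With scaling to the total count SREBF2 was higher (log2 fold change 0.16, limma adjusted p = 0.047). SCAP, the escort protein of both factors, had 1429, 1219 and 1349 in DMSO and 1245, 1209 and 1102 with erlotinib. Its groups overlapped too, with a 95% interval of -0.35 to 0.01 and an adjusted p of 0.085 (limma). With a correction for GC content the log2 fold change of SCAP was -0.50 (limma adjusted p = 9.9e-07), and without DMSO library 2 it was -0.23 (limma adjusted p = 0.0082).

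STARD4, a soluble carrier that moves cholesterol between membranes, was among the largest falls. Its signal was 1393, 1754 and 1289.7 in DMSO and 307, 282 and 339.8 with erlotinib. Erlotinib libraries held 20.9% of the DMSO level, with a log2 fold change of -2.24 (SE 0.11, limma adjusted p = 3.5e-13). STARD4 overlaps its antisense gene by 310 bases, and the antisense gene had a mean signal of 129 against 894 for STARD4.

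Promoters are shown for members with contrasting values, since many members moved together and SREBP acts at promoters with partner factors. The sequences are those of RefSeq on GRCh38.p14, from 250 bases before to 50 bases after a gene start, and 32 of the 36 members had at least 1 (SQLE, FDFT1, ACAT2 and FASN were not matched). Each is written 5′ to 3′ on the strand of the gene, and capitals mark matches to CCAAT (bound by NF-Y), to the E-box CACGTG and to the core of the sterol regulatory element, TCACNCCAC, on either strand. The windows are chr7:155297628-155297927 for INSIG1, chr10:100346983-100347282 for SCD, chrX:152830813-152831112 for NSDHL, chr22:41832855-41833154 for SREBF2 and chr11:65111622-65111921 for TM7SF2, all on the plus strand.
INSIG1: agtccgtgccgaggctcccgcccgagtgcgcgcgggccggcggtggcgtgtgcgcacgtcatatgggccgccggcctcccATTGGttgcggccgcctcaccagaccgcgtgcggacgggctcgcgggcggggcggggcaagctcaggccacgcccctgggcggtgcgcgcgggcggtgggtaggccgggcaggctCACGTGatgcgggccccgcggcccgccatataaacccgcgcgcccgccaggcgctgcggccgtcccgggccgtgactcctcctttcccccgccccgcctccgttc
SCD: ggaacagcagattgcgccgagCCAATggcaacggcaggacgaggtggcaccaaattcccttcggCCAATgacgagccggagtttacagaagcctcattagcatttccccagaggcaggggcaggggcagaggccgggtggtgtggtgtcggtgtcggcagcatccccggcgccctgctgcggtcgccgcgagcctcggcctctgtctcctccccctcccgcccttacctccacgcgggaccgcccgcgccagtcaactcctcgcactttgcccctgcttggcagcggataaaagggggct
NSDHL: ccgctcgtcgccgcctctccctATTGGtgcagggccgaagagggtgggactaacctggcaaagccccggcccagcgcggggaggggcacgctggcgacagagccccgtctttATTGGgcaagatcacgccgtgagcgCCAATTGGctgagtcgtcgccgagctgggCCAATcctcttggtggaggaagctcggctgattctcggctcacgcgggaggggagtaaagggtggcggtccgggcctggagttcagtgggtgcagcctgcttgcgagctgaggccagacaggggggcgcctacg
SREBF2: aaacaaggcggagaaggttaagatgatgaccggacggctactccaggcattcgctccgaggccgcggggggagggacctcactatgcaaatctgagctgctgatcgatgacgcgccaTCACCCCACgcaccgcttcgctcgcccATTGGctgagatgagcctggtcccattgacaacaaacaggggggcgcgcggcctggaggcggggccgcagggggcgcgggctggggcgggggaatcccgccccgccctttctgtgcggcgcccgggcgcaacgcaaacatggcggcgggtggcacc
TM7SF2: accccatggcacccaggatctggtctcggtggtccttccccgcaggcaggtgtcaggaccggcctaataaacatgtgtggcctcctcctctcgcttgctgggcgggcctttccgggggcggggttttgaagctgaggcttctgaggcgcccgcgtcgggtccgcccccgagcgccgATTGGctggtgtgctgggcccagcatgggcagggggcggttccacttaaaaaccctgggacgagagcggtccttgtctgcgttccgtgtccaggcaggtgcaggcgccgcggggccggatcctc

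The CCAAT box was found in a promoter of 25 of the 32 members (78.1%), of 42.7% of the tested genes and of 39.7% of all genes. It occurs in all 5 promoters shown, those of the falling genes INSIG1, SCD and NSDHL, of SREBF2, which did not pass the threshold, and of the rising gene TM7SF2. Among tested members that were lower, 19 of 24 held it, and among tested members that were not, 5 of 7 did. ACACA, which was not tested for a change, also held it and is in neither group. The GC box GGGCGG, bound by Sp1, was found in 30 members (93.8%), in 75.3% of the tested genes and in 48.3% of all genes. The E-box was found in INSIG1, LSS, SC5D, ELOVL5 and SCAP (15.6% of members, against 12.4% of the tested genes and 8.8% of all genes). The strict letters of the sterol regulatory element were found only in SREBF2 (3.1% of members, against 1.4% of the tested genes and of all genes). No match says only that these letters are not in the window.

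Lists of neighbouring lipid pathways are given beside the 35.4% lower and 35.3% higher over all tested genes, and nothing particular to a list is read from its counts. A list of the branches that leave the mevalonate pathway for ubiquinone, dolichol and protein prenylation had 8 of 12 lower (66.7%) and 1 higher (8.33%). These 12 include the sterol genes LBR and ERG28, both lower (log2 fold changes -1.53 and -0.57). PDSS1, which makes the side chain of ubiquinone, fell by 2.56 on the log2 scale (adjusted p = 3.7e-08, limma). The mean signal of PDSS1 was 125 in DMSO and 20.2 with erlotinib. RABGGTA, a subunit of the enzyme that prenylates RAB proteins, rose by 0.58 (adjusted p = 0.0032, limma). Of 11 genes of SREBP processing and turnover, 5 were lower (45.5%) and 2 higher (18.2%). UBE2G2, a ubiquitin-conjugating enzyme of degradation at the endoplasmic reticulum, fell by 1.48 and LPIN1, a phosphatidate phosphatase that also restrains SREBP in the nucleus, fell by 1.42. MBTPS1, the first of the proteases that cut SREBP, rose by 0.56, and SIRT1, a deacetylase, rose by 0.33 (adjusted p of 0.0039 or less for these 4 genes, limma).

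For sterol uptake, transport and storage, 6 genes were lower (33.3%), 8 higher (44.4%) and 4 neither of 18 tested, shares near those over all tested genes. TMEM97, a sterol-responsive membrane protein, fell by 1.67 and SCARB1, a lipoprotein receptor, fell by 1.56 on the log2 scale. LRP1, a large endocytic receptor, rose from a mean signal of 100.1 to 582 (log2 fold change 2.56), and GRAMD1C, a sterol carrier at membrane contacts, rose by 2.52. All 4 had a limma adjusted p of 3.1e-11 or less. Of the receptor LXR and its targets, which act when sterols are plentiful, 3 were lower and 5 higher of 8 tested. LPCAT3, which puts polyunsaturated chains into phospholipids, fell by 0.74, while SMPDL3A rose by 1.55 and ABCA3, a lipid transporter of alveolar cells, rose by 1.11 (adjusted p of 1.6e-06 or less, limma).

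On the fatty acid side, 8 of 10 genes that supply NADPH or acetyl-CoA were lower and 2 higher. MTHFD1, a folate enzyme, fell by 1.12 and CS, the citrate synthase, fell by 0.79, while ACSS1, which makes acetyl-CoA in mitochondria, rose by 3.21 from a mean signal of 11.7 to 111, and IDH1, which makes NADPH in the cytosol, rose by 0.49 (adjusted p of 1.8e-06 or less, limma). Of 13 other elongases, desaturases and carriers tested, 7 were lower and 2 higher. HACD1 fell by 1.32 and HSD17B12 fell by 0.90, both enzymes of the elongation cycle (limma adjusted p of 8.4e-04 or less). The 2 higher genes were desaturase relatives, SCD5 (log2 fold change 1.89, from a mean signal of 39.3 to 145) and FADS3 (1.74, from 268 to 894), both with a limma adjusted p of 8.4e-07 or less. SCD5 stayed far below SCD in signal.

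For fatty acid activation and glycerolipid synthesis, 7 of 19 tested genes were lower (36.8%) and 9 higher (47.4%), with 35.4% and 35.3% over all tested genes. GPAT3, which starts glycerolipid synthesis, fell by 2.11 and ACSL3, which activates fatty acids, fell by 1.65, while PNPLA2, the lipase of lipid droplets, rose by 1.86 and AGPAT3, an acyltransferase, rose by 1.59 (adjusted p of 5.4e-12 or less, limma). For fatty acid oxidation, 11 of 21 tested genes were higher (52.4%) and 5 lower (23.8%), beside the same shares over all tested genes, and the median of their log2 fold changes was 0.28. PDK4, which restrains glucose oxidation, rose by 3.20 from a mean signal of 78.0 to 726, and CPT1A, the carrier enzyme that lets fatty acids into mitochondria, rose by 2.54 from 68.4 to 397 (adjusted p of 4.2e-11 or less, limma). ECI2 fell by 0.87 and ETFA, an electron carrier of the same pathway, fell by 0.62 (adjusted p of 1.7e-05 or less, limma).

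**Figure D4:**
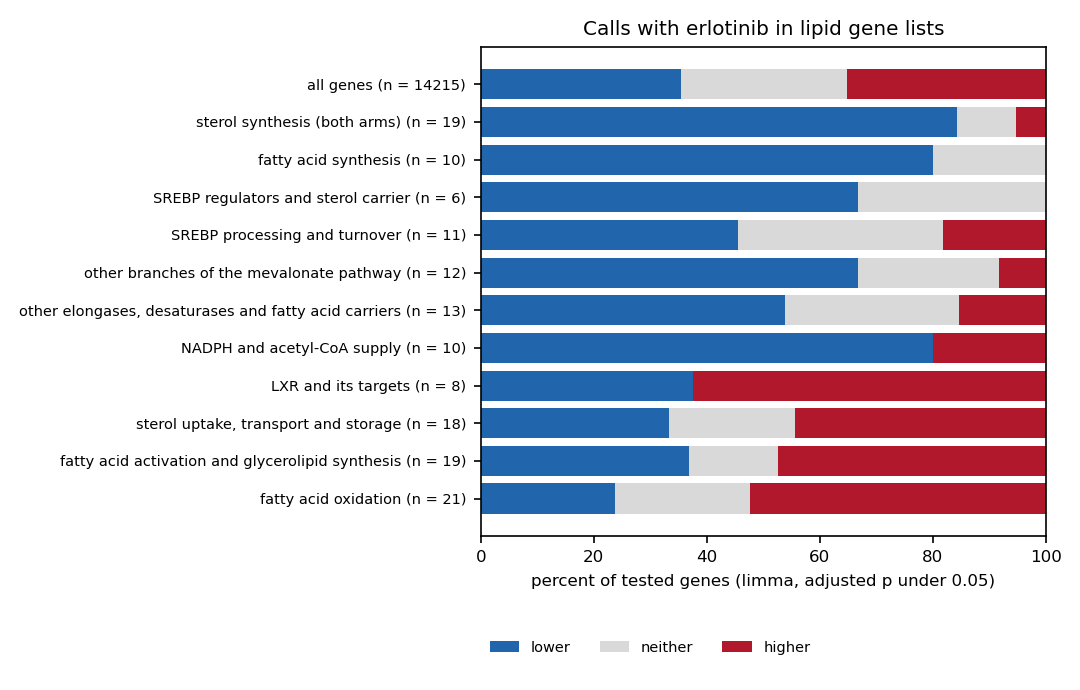
Share of the tested genes of each lipid list that were lower (blue), neither (grey) or higher (red) with erlotinib at an adjusted p under 0.05 (limma), with the number tested beside each name. The bars of sterol synthesis (84.2% lower) and fatty acid synthesis (80% lower) are mostly blue against 35.4% over all genes, and that of fatty acid oxidation is the one with the smallest blue part (23.8%).

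The second DMSO library stood apart from the others of its group in a way that moved with base composition. The median difference of its log2 signal from the mean of the other DMSO libraries was -0.28 in the 13 tested members with a GC content of at least 55%, and 0.19 in the 13 with under 45%. Over all tested genes of the same GC content these medians were -0.21 and 0.16. The median log2 fold change with erlotinib was -0.48 in the GC-rich members and -1.32 in the GC-poor ones, beside 0.29 and -0.14 over all tested genes. With a correction for GC content 29 members were lower and 2 higher, and without DMSO library 2 the counts were 29 and 2.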

How the data were processed

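RNA of HCC827 cells was selected by oligo(dT) and sequenced as paired ends. Per the labels and methods, the authors aligned reads to GRCh38 with Bowtie2 2.3.4 and assigned unique reads to genes with featureCounts 1.6.3. The strand setting is not given in the sources used here. The deposited signal values are those read counts divided by 1 DESeq2 size factor per library, and multiplying back gave whole reads for 100% of values (tolerance 0.01). An aligner that does not split reads loses those over exon junctions, which lowers the levels of genes with short exons.

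The signal was not raw counts, so limma 3.58.1 (R 4.3.3, trended variance) was run on log2(signal + 1) for genes whose mean signal was 10 or more, and p-values were adjusted by Benjamini-Hochberg. A fold change on this scale understates that of low genes. The paper's methods state independent repeats for all experiments except those in animals, but the labels do not say whether the 3 libraries of each treatment came from separate cultures. If they did not, p-values measure only the spread between these samples, which may be technical. Alternatives used edgeR 4.0.16 and DESeq2 1.42.0 on recovered reads, limma-voom, other scalings, pseudocounts and filters, each library left out, and a correction for GC content. The members and lists were chosen with earlier results of these data known. All tested members were named, and for each other list the 2 largest falls and the 2 largest rises past the threshold. Near-identical copies were sought with minimap2 2.31-r1302, as alignments over at least 50% of a transcript at 90% identity. Some single genes of these pathways are not reported here.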

Additional observations from a re-analysis of the deposited data

How the results depend on the processing

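Of the 35 tested members, 27 kept their direction and their side of the threshold under all alternatives, and 8 did not. Members lower with erlotinib numbered 26 to 29 over the alternatives, sterol genes lower 15 to 16 and fatty acid genes lower 7 to 8. The count of 7 arose only where ACACB and ELOVL1 were left out of the list as weaker SREBP targets. ELOVL1 was lower in the main fit, so the list was shorter and no call was lost. Members higher numbered 3 with scaling to the total count, 2 with GC correction, and 1 to 2 when single libraries were left out. Sterol genes higher numbered 2 with GC correction. They numbered 0 when GGPS1 and TM7SF2, set aside as weaker SREBP targets, were left out of the list. That count was fixed in advance, since TM7SF2 was the only sterol gene higher in the main fit. Fatty acid genes higher numbered 1 with scaling to the total count, and 0 to 1 when single libraries were left out. The log2 fold change changed sign for 5 members. Of these values, those of PMVK and GGPS1 with GC correction and of SREBF2 with scaling to the total count passed the threshold. For PMVK it was -0.0067 with TMM factors in limma and -0.18 with GC correction, and -0.027 to 0.044 with a library left out. For GGPS1 it was 0.014 with edgeR and TMM factors, 0.0058 with DESeq2, 0.011 with limma-voom, 0.17 with scaling to the total count and 0.18 with GC correction, and -0.042 to 0.064 with a library left out. With scaling to the total count it was 0.080 for ACSS2, 0.16 for SREBF2 and 0.012 for SCAP, and SREBF2 lay between -0.053 and 0.040 with a library left out. Scaling to the total count moved the median of all tested genes to 0.20, and the medians were then -0.81 for the members, -0.82 for the sterol genes and -0.75 for the fatty acid genes. Under that scaling MVD, FADS2 and ELOVL1 stayed lower at -0.34, -0.27 and -0.30, and with GC correction MVD was at -0.85. The GC correction was chosen after seeing the data. The cause of these changes was not tested. No paired analysis was possible because the erlotinib columns carry numbers 4 to 6, which match no number that the labels give an erlotinib sample. ACACA, with at most 10 reads in a library, was too shallow to test.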
